A study of Mus musculus with 4 samples.

Results

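The nuclear genes of the mitochondrial respiratory chain were followed in cultured cerebral cells of C3H/He mice exposed to IFNγ and to benztropine. Members were all genes of the probe annotation whose symbol starts with Nduf, Sdha, Sdhb, Sdhc, Sdhd, Uqcr, Cox4, Cox5, Cox6, Cox7 or Cox8. The prefixes also take in assembly factors and pseudogenes. The annotation holds 84 such symbols, and 75 of them have a probe set of their own, of 22180 genes measured in this way. The other 9 symbols lie only on probe sets shared with another gene, and 2 further protein-coding genes with such a symbol were not analysed here. Of the 75 members, 6 encode nuclear core subunits of complex I, 26 its accessory subunits and 8 its assembly factors. Complex II is represented by 4 subunits and 4 assembly factors, and complex III by 7 subunits. For complex IV there are 10 general subunits and 7 isoforms of limited tissue range, and *Ndufa4* and *Ndufa4l2* were kept as a pair. The remaining member, *Uqcrh-ps1*, is a pseudogene.

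The transcripts were measured with 4 Mouse Gene 2.0 ST arrays (Affymetrix), a single one per condition. The conditions were IFNγ at 250 IU/mL together with benztropine at 2.0 μM, IFNγ alone, benztropine alone, and an untreated control, each for 48 h. The cells came from brains of 3-day-old pups, were adherent cells left after oligodendrocytes had been shaken off, and are described by the labels as primary astrocytes. IFNγ is the main cytokine of activated T and NK cells, and benztropine is a muscarinic receptor antagonist that has been studied as a remyelinating agent. RNA from 3 independent cultures was mixed before each array, so no replicate check exists, and a change is the log2 difference between 2 arrays with no error and no p-value. Signals are given on the log2 scale of RMA, the method by which the arrays were normalized, with medians over all probe sets between 6.65 and 6.68. The 1405 probe sets for smell and pheromone receptors (olfactory and vomeronasal genes) gave the background, set on each array at their 95th percentile, between 6.64 and 6.69. Of the astrocyte markers 8 or 9 of 9 were above it on each array, as were 10 of 10 markers of microglia and macrophages. Of the oligodendrocyte lineage 6 or 7 of 7 were, and of 6 neuron markers 4, where 58.0% of all genes were in control. In control *Olig1* and *Olig2*, at 10.27 and 9.30, lay far above background, and *Sox10* and *Mog*, at 6.61 and 6.70, close to it. The RNA thus also held transcripts of marker genes of other cells than astrocytes. In such bulk samples, fewer cells of a type and less RNA per cell cannot be told apart. The labels of the IFNγ arrays were checked with the 4 measured genes of a list of 6 IFNγ targets, *Irf1*, *Psmb8*, *Psmb9* and *Ciita*, which were higher by 0.81 to 1.90 on the log2 scale with IFNγ than in control and by 0.86 to 2.17 with both agents than with benztropine alone.

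The respiratory chain passes electrons from NADH, through complex I, and from succinate, through complex II, to ubiquinone, then through complex III and cytochrome c to complex IV, which reduces oxygen. Complexes I, III and IV pump protons across the inner mitochondrial membrane, and ATP synthase uses the gradient. A few core subunits are encoded by mitochondrial DNA, and the rest by nuclear genes such as these, whose transcription is commonly coordinated by NRF1, the ETS factor GABPA and coactivators of the PGC-1 family. Astrocytes rely strongly on glycolysis but keep a working respiratory chain, and macrophages are known to shift away from oxidative metabolism on inflammatory activation.

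Most members gave a clear signal, and the level of a gene moved little between conditions. On the control array 64 of 75 members (64 on all 4 arrays) were above background, where 58.0% of all genes were. With the 99th percentile of the receptors as background, 53 of 75 were above it in control. The share of all genes above this stricter level is not given here, so counts at that level cannot be set against it. Signals of the members ran from 4.58 to 12.41 with both agents, from 4.49 to 12.38 with IFNγ, from 4.78 to 12.36 with benztropine and from 4.52 to 12.43 in control. Probes differ in how strongly they bind, so these values do not rank the genes. The distance between the lowest and the highest of a gene's 4 signals had a median of 0.17 (1.13-fold) over the members and of 0.20 (1.15-fold) over all genes. In 66 of the 75 members (88.0%) and in 78.8% of all genes it was under 0.32. Restricted to genes above background on all 4 arrays, the medians were 0.16 for 64 members and 0.18 for 12409 genes.

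**Figure D1:**
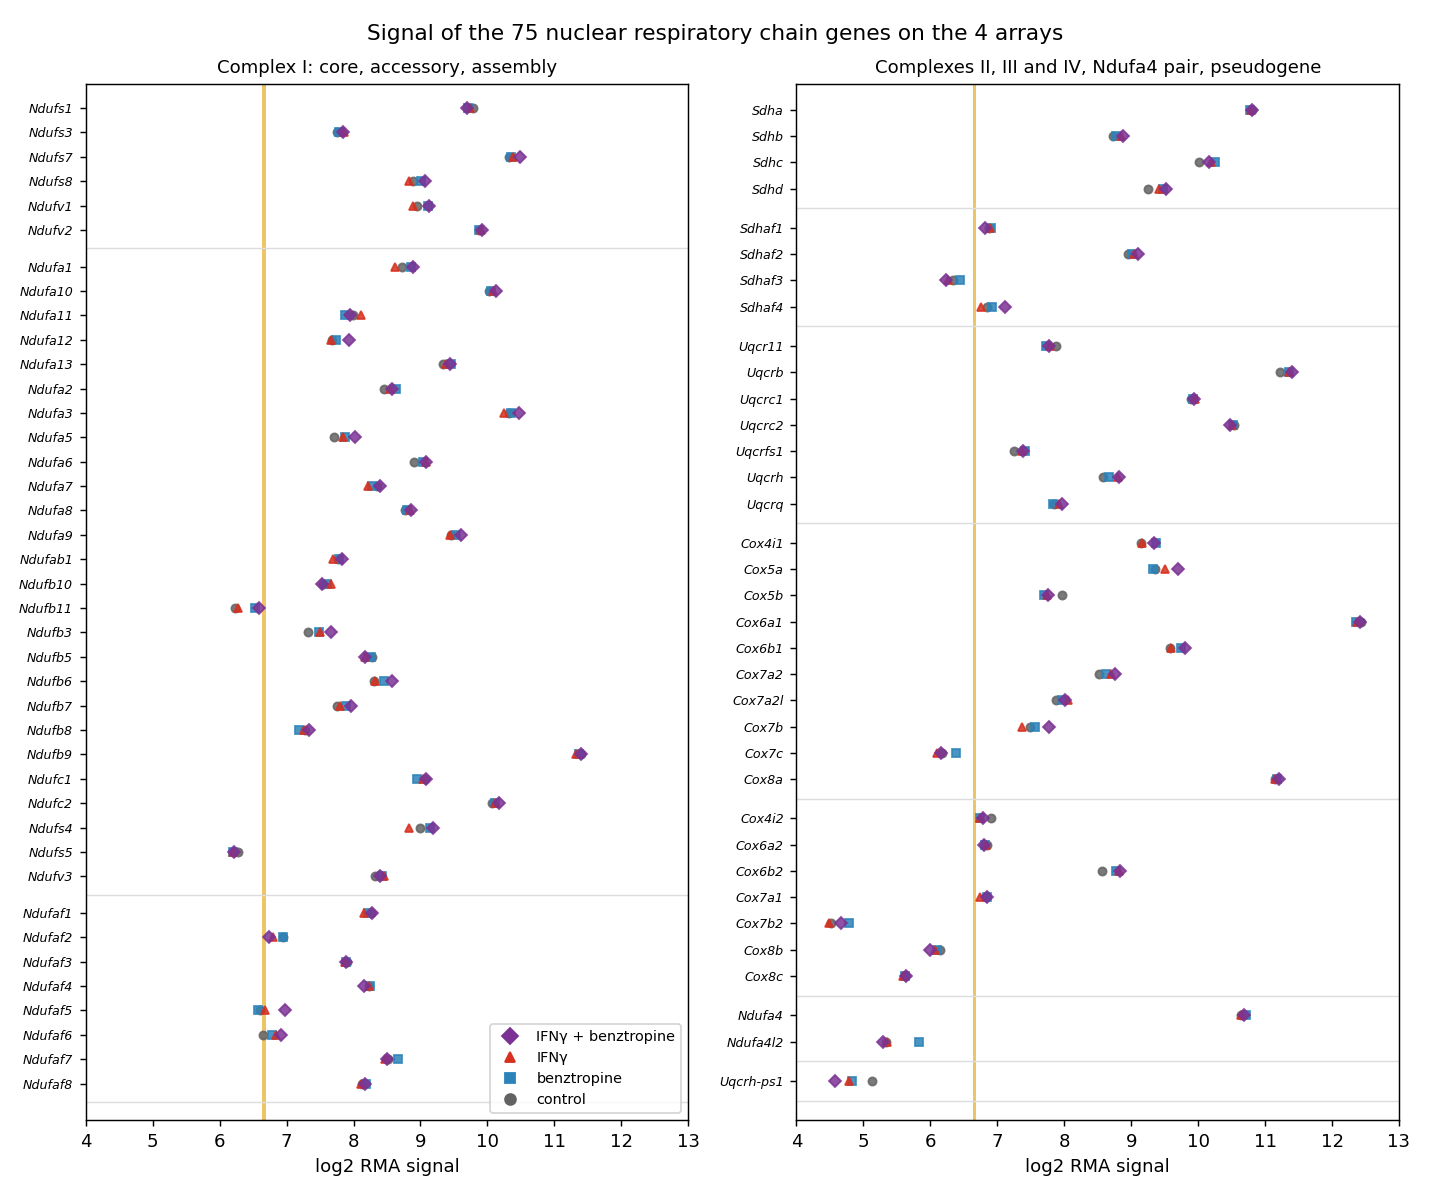
Log2 RMA signal (horizontal axis) of each of the 75 members on the 4 arrays, with 1 point for each array and grey lines between the groups of genes, in the order core, accessory and assembly genes of complex I (left) and complex II subunits, complex II assembly factors, complex III, general and tissue-limited complex IV subunits, the *Ndufa4* pair and the pseudogene (right). The yellow band is the background level of 6.64 to 6.69, and the 4 points of a gene span a median of 0.17.

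By complex, all 6 core subunits of complex I, all 4 subunits of complex II and all 7 of complex III were above background on each array. Of the 26 accessory subunits of complex I, 24 were, and the exceptions were *Ndufb11* and *Ndufs5*. A probe set shared by *Ndufs5* and *Ndufs5-ps*, which the comparisons left out, was above background on all 4 arrays, at 7.96 to 8.09. Among the general subunits of complex IV 9 of 10 were, with *Cox7c* the exception. These genes encode subunits that ordinary respiring cells carry, so a signal below background here does not show that the transcript was absent. Fewer assembly factors passed the stricter level, with 5 of 8 for complex I and 1 of 4 for complex II above the 99th percentile in control. The members below background on all 4 arrays were *Ndufb11*, *Ndufs5*, *Sdhaf3*, *Cox7c*, *Cox7b2*, *Cox8b*, *Cox8c*, *Ndufa4l2* and *Uqcrh-ps1*. *Ndufaf5* was above background on 2 arrays and *Ndufaf6* on 3. Many of these genes have processed pseudogenes with near-identical sequence, so their signals are uncertain where probes are shared.

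For IFNγ there were a pair of arrays without benztropine, IFNγ and control, and a separate pair with it, both agents and benztropine alone. None of the 75 members passed the 1.5-fold threshold used in the study, a log2 difference of 0.58, in either direction in either pair. Over all genes, 1.68% passed it with IFNγ against control and 1.6% with both agents against benztropine. The median difference of the members was 0.0049 with IFNγ against control, beside −0.0013 for all genes. With both agents against benztropine it was 0.047, beside −0.035. The members were therefore near the middle of all genes in the first pair and slightly above it in the second. Higher by any amount were 38 of 75 members (50.7%) against control, with 49.5% of all genes, and 51 (68%) in the separate pair, with 40.2% of all genes. With each array centered on the median of all genes the last were 61 (81.3%) and 51.3%. Quantile normalization of the arrays again turned the first median to −0.017, beside −0.022 for all genes. Both pairs put 27 members (36%) higher and 13 (17.3%) lower, beside 24.3% and 34.4% of all genes. These counts were 25 and 17 after quantile normalization and 30 and 9 after centering. Both arrays with IFNγ stood above both without it in 20 members (26.7%) and below in 8 (10.7%), beside 17.1% and 24.7% of all genes.

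A smaller threshold, a log2 difference of 0.32, was tried as an alternative and picked out few members with IFNγ. Against control it took 0 members higher and 1 lower, where 4.76% and 3.15% of all genes passed, and the one was the pseudogene *Uqcrh-ps1*, below background. In the separate pair 2 were higher and 1 lower, with 3.85% and 4.07% of all genes. *Ndufaf5*, which hydroxylates the core subunit Ndufs7 during assembly of complex I, had a signal of 6.97 with both agents, 6.67 with IFNγ, 6.57 with benztropine and 6.61 in control. The measured difference was 0.41 in the presence of benztropine and 0.06 in its absence, but the benztropine and control signals were below background, so no fold is given. The array with both agents stood above the other 3. *Cox5a*, a matrix subunit of complex IV, had 9.71 with both agents, 9.51 with IFNγ, 9.33 with benztropine and 9.36 in control. Its differences were 0.38 (1.30-fold) and 0.15, so both arrays with IFNγ stood above both without it. *Ndufa4l2* was lower by 0.54 in the separate pair, at signals below background.

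The IFNγ differences are given next by complex, first against control and then in the separate pair. The core subunits of complex I had a median of −0.0056 against control and 0.052 in the separate pair, with *Ndufs7*, an iron-sulfur subunit, at 0.05 and 0.14 and *Ndufs1*, the subunit with several iron-sulfur clusters, at −0.04 and −0.02. Its accessory subunits had medians of 0.023 and 0.066. Here *Ndufb3* of the membrane arm was highest over both pairs, at 0.17 and 0.18, and *Ndufb5* lowest, at −0.09 and −0.10. For complex II subunits the medians were 0.13 and 0.040, with *Sdhb*, which carries the iron-sulfur clusters, at 0.11 in each pair and *Sdha*, the flavoprotein, at −0.01 and 0.03. Complex III had medians of 0.074 and 0.045. *Uqcrh*, the hinge protein, was higher by 0.22 and 0.15, whereas *Uqcrc2*, a core protein, was lower by 0.03 in each pair. The general subunits of complex IV had medians of 0.0032 and 0.055. By the mean over both pairs *Cox5a* was highest here and *Cox7c*, with −0.07 and −0.22 at signals below background, lowest. Assembly factors of complex I had medians of −0.022 and 0.00080, and *Ndufaf2*, which assists late assembly, had −0.14 and −0.22. For complex II assembly factors the medians were −0.033 and 0.0020, from *Sdhaf2*, which helps attach flavin to Sdha, at 0.09 in each pair, the highest by the mean over both, to *Sdhaf3* at −0.08 and −0.21, the lowest. *Sdhaf4* had −0.09 and 0.19.

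**Figure D2:**
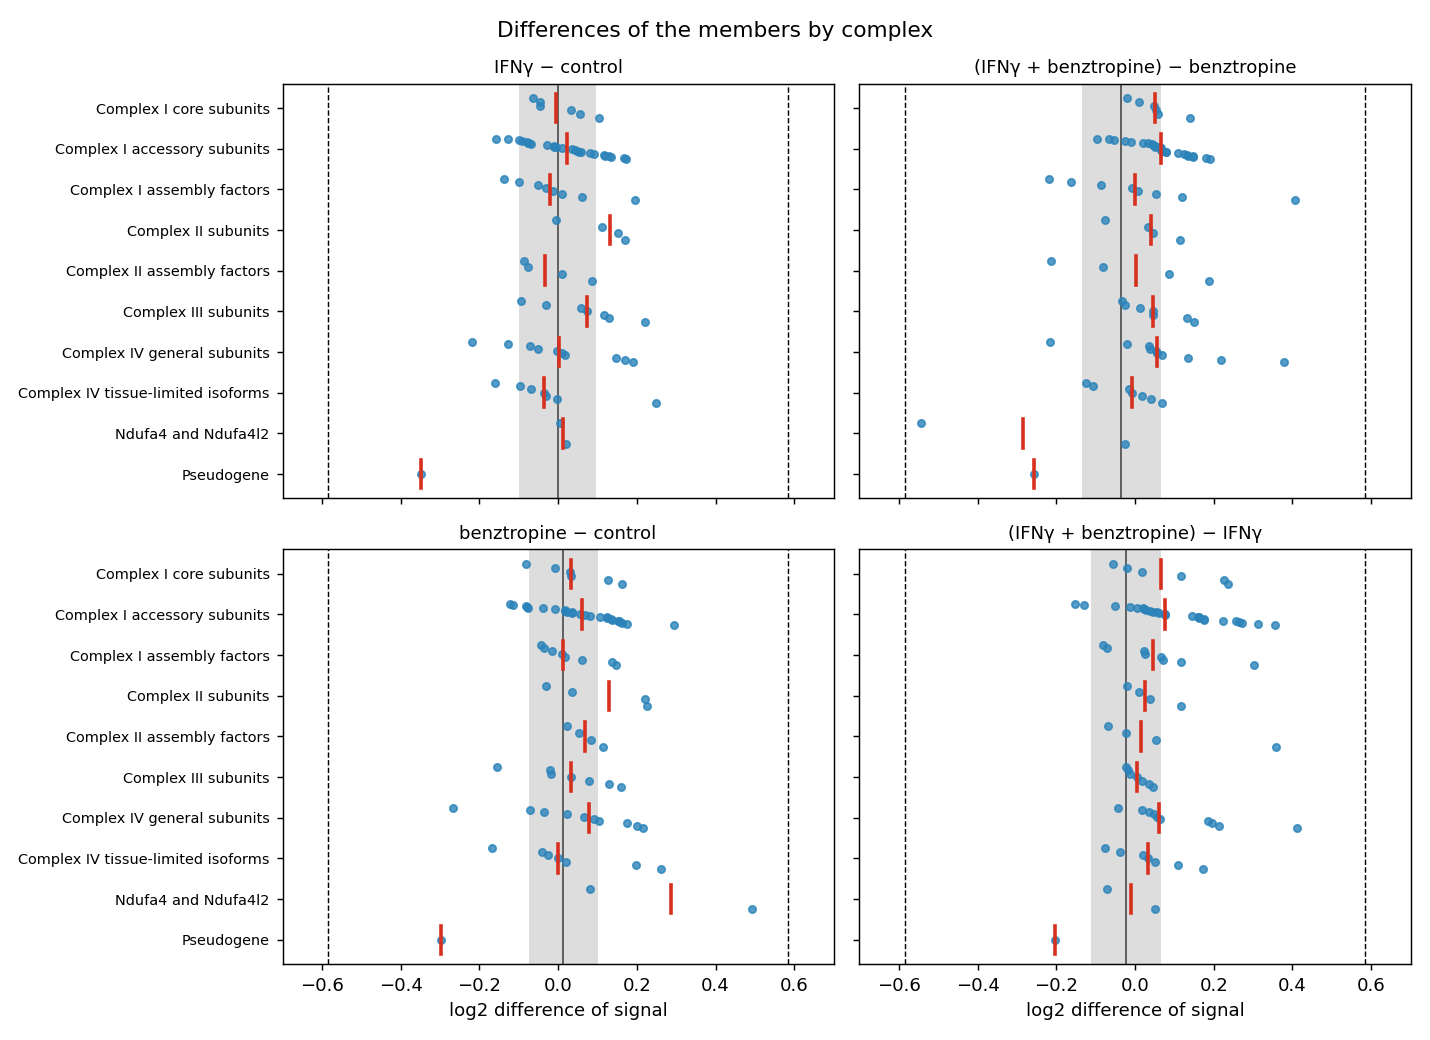
Log2 difference of signal (horizontal axis) of each member, as blue points, in 4 comparisons, with the genes grouped by complex on the vertical axis. Red bars are group medians, the black line and grey band are the median and the middle 50% of all 22180 genes, and the dashed lines mark 1.5-fold, which no member reached.

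Benztropine was likewise measured against control and, in a separate pair, with both agents against IFNγ alone. These are the same 4 arrays as for IFNγ. The control array is in the first pair of each agent and the array of both agents in each separate pair. The results of the agents are therefore not separate measures. Again 0 of 75 members passed 1.5-fold in either direction in either pair, and few genes of any kind did, 0.464% against control and 0.514% in the separate pair. The median difference of the members was 0.036 against control, beside 0.012 for all genes, and 0.046 in the separate pair, beside −0.022. Of the 75 members, 51 (68%) were higher by any amount against control, where 53.6% of all genes were, and 56 (74.7%) in the separate pair, where 43% were. After centering the first were 43 (57.3%) and 45.6%. Both pairs put 40 members (53.3%) higher and 8 (10.7%) lower, while 25.2% of all genes were higher and 28.4% lower in both. Among genes above background on all 4 arrays, 36 of 64 members (56.2%) were higher in both pairs and 6 (9.38%) lower, beside 27.6% and 28.4% of 12409 genes. These shifts were small beside 1.5-fold. Across the members the differences of the 2 separate pairs had a Pearson correlation of 0.313, and across all genes of 0.121, as a description over genes of the same arrays. For IFNγ the correlation of its 2 pairs was 0.292 across the members and 0.653 across all genes.

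**Figure D3:**
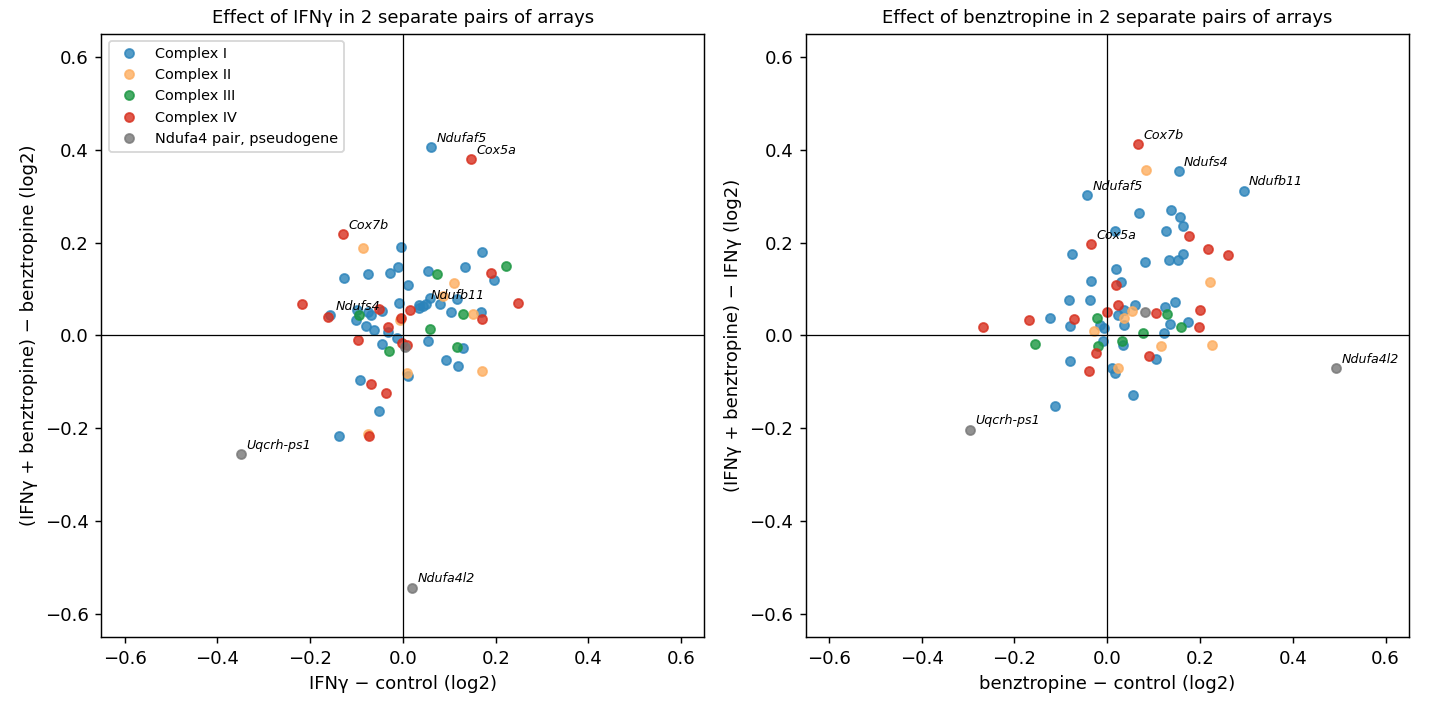
Log2 difference of each member in 2 pairs of arrays that share no array, for IFNγ (left) and for benztropine (right), with points colored by complex. On the right 40 of the 75 points lie in the upper right quadrant and 8 in the lower left, and on the left 27 and 13.

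Several members that were higher in both benztropine pairs encode subunits of complexes I and IV. *Ndufb11*, an X-linked subunit of the membrane arm of complex I, had 6.59 with both agents, 6.28 with IFNγ, 6.52 with benztropine and 6.23 in control, and its differences were 0.29 and 0.31, but all 4 signals were below background. *Ndufs4*, an accessory subunit of the matrix arm whose loss causes a fatal encephalopathy in mice, had 9.19 with both agents, 8.84 with IFNγ, 9.15 with benztropine and 8.99 in control. Both arrays with benztropine stood above both without it, by 0.15 against control and by 0.35 (1.28-fold) in the presence of IFNγ. *Ndufv1*, the core subunit that binds NADH and flavin, had 9.13 with both agents, 8.89 with IFNγ, 9.12 with benztropine and 8.95 in control, which gave differences of 0.16 and 0.24. *Cox4i1*, the common form of the regulatory subunit 4 of complex IV, had 9.35, 9.16, 9.37 and 9.15 in the same order. Its differences were 0.22 and 0.19. *Cox6b1*, which helps join the monomers of complex IV, followed with 0.18 and 0.21, at 9.80 with both agents, 9.59 with IFNγ, 9.75 with benztropine and 9.57 in control. *Ndufs4*, *Ndufv1*, *Cox4i1* and *Cox6b1* were among 25 members (33.3%) in which both arrays with benztropine stood above both without it, beside 14.7% of all genes. In 4 members (5.33%) both stood below, beside 16.6% of all genes.

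Other members differed in 1 of the separate pairs more than in the other. *Cox7b*, an X-linked subunit of complex IV, had a mean signal of 7.78 with both agents, 7.37 with IFNγ, 7.56 with benztropine and 7.50 in control. Its difference was 0.41 (1.33-fold) with both agents against IFNγ and 0.07 with benztropine against control. The 2 probe sets of *Cox7b* disagreed. The one with the higher signal differed by 0.60 in the presence of IFNγ and by 0.31 against control, and the other, below background on all arrays, by 0.23 and −0.18. By the highest probe set alone *Cox7b* therefore passed 1.5-fold in the presence of IFNγ. *Sdhaf4*, which assists the joining of Sdha and Sdhb, differed by 0.08 against control and by 0.36 (1.28-fold) in the presence of IFNγ. *Cox5b*, a zinc-binding subunit of complex IV, had 7.76 with both agents, 7.74 with IFNγ, 7.69 with benztropine and 7.96 in control. It was lower by 0.27 with benztropine against control and differed by 0.02 in the separate pair. Of its 2 probe sets, the one above background gave −0.09 and 0.14 and the one below gave −0.44 and −0.10. Past 0.32, 1 member was higher and 0 lower against control, with 2.59% and 2.2% of all genes, and 3 were higher and 0 lower in the presence of IFNγ, with 2.15% and 2.92%. The one against control was *Ndufa4l2* and the others *Ndufs4*, *Sdhaf4* and *Cox7b*.

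By complex, the accessory subunits of complex I had median differences of 0.061 with benztropine against control and 0.076 in the presence of IFNγ, with 17 of 26 higher in both pairs and 2, *Ndufa11* and *Ndufb5*, lower in both. *Ndufa11*, of the membrane arm, was lower by 0.11 and 0.15. Its 2 probe sets disagreed in the presence of IFNγ, at 0.09 for the one above background on all arrays and −0.40 for the one above it on 2. General subunits of complex IV had medians of 0.078 and 0.060, with 6 of 10 higher in both pairs and 0 lower in both. For the core subunits of complex I the medians were 0.032 and 0.066, and for complex II subunits 0.13 and 0.024, where *Sdhd*, a membrane anchor, had 0.22 and 0.12 and *Sdha* −0.03 and 0.01. Complex III had medians of 0.032 and 0.0052, and its members ranged in the separate pair only from −0.02 to 0.05. Here *Uqcrfs1*, the Rieske iron-sulfur protein, had 0.16 and 0.02 and the small subunit gene *Uqcr11* had −0.16 and −0.02. Assembly factors of complex I had medians of 0.013 and 0.045, with *Ndufaf5* at −0.04 and 0.30 and *Ndufaf4* at 0.02 and −0.08. Those of complex II had 0.069 and 0.015, with *Sdhaf1*, which helps insert iron-sulfur clusters into Sdhb, at 0.02 and −0.07. The 2 probe sets of *Sdhaf1* had opposite signs, 0.20 and 0.13 for the one above background and −0.15 and −0.27 for the one below.

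Marker genes of the cell types in the culture also differed between the arrays. With IFNγ against control 2 of 9 astrocyte markers were higher, with a median of −0.16, and 0 of 9 in the separate pair, with a median of −0.21. Of 10 markers of microglia and macrophages 6 and 3 were higher, with medians of 0.094 and −0.13. With benztropine against control, 9 of 10 markers of microglia and macrophages were higher, with a median of 0.10, and 4 of 10 in the presence of IFNγ, with a median of −0.030. Their summed signal on the log2 scale was 14.57 with both agents, 14.58 with IFNγ, 14.51 with benztropine and 14.44 in control. *Ctss*, at 13.15 with IFNγ, had the highest signal of these markers and weighs most in this sum. In the 2 IFNγ pairs *Ctss* was higher by 0.39 and 0.42, whereas *P2ry12* was lower by 0.41 and 0.46. Of the 9 astrocyte markers 2 were higher with benztropine against control and 1 in the presence of IFNγ, with medians of −0.079 and −0.15, and their summed signals were 13.64, 13.79, 13.82 and 13.90 in the same order of arrays. Of 6 fibroblast and leptomeningeal markers 4 and 5 were higher, with differences up to 1.11 against control and at least 1.28-fold in the presence of IFNγ, both in *Dcn*, whose signal with IFNγ alone was below background. With IFNγ 1 and 0 of these 6 were higher, and *Dcn* had −0.90 and −1.41. Of 7 oligodendrocyte lineage markers 5 and 4 were higher with benztropine, with medians of 0.12 and 0.021, and 2 and 3 with IFNγ, with medians of −0.058 and −0.067. The summed signals of the fibroblast markers were 10.21, 10.09, 10.56 and 10.35, and those of the oligodendrocyte lineage 11.17, 11.14, 11.34 and 11.29. Other markers past 1.5-fold in a comparison were *S100b*, *Aif1*, *Mrc1* and *Lum* and, of 6 neuron markers, *Tubb3* and *Nefl*. *S100b* was lower by 0.67 with both agents against benztropine and by 0.69 against control. Its signals with IFNγ, alone or with benztropine, were below background. With both agents *Aif1* and *Tubb3* were higher by 0.73 and 0.74 against control, and *Mrc1* was lower by 0.68 against benztropine. *Lum* and *Nefl* were below background on all arrays. The part of the cell types in the differences of the members was not tested.

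With both agents against control, 0 members passed 1.5-fold in either direction, where 2.06% of all genes did. The median of the members was 0.099 and that of all genes −0.027, and 54 members (72%) and 43.9% of all genes were higher. This comparison shares the array of both agents with 2 of the pairs above and the control array with the other 2, so it adds no separate measure. The general subunits of complex IV had a median of 0.16, complex II subunits of 0.15 and core subunits of complex I of 0.13. Past 0.32 were *Ndufb3* at 0.33, *Cox5a* at 0.34, *Ndufaf5* at 0.36 against a control signal below background, *Ndufb11* at 0.36 with both signals below it and, lower and likewise below it, *Uqcrh-ps1*, by 0.55, with 5.37% of all genes higher and 5.03% lower. The departure from adding, which is the IFNγ difference in the presence of benztropine minus that in its absence, had a median of 0.018 over the members and −0.035 over all genes. Past 0.32 it was 0.35 for *Cox7b*, 0.34 for *Ndufaf5* and −0.56 for *Ndufa4l2*, which was below background on all arrays, and 4.3% of all genes lay past it on the higher and 6.85% on the lower side.

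A limma fit of all 4 arrays, in which the effects of the agents add and 1 degree of freedom is left, called 0 of the 75 members for either agent after Benjamini-Hochberg adjustment over all genes. It takes array error and any departure from adding as its residual. For benztropine it called 0 of 22180 genes, the smallest adjusted p among members was 0.692, and at an unadjusted p under 0.05 it had 8 members higher (10.7%) and 1 lower, beside 3.53% and 3.61% of all genes. The 8 were *Ndufb11*, *Ndufs4*, *Cox7b2*, *Cox4i1*, *Ndufb6*, *Ndufv1*, *Cox6b1* and *Ndufa1*, with fitted log2 differences from 0.19 to 0.30. None of the 8 passed the adjustment, and *Ndufb11* and *Cox7b2* were below background on all 4 arrays. For IFNγ it called 161 genes higher and 6 lower, the smallest adjusted p among members was 0.249, and the unadjusted p was under 0.05 for 2 members that were higher and 1 that was lower, beside 5.87% and 6.53% of all genes. The pair higher with IFNγ was *Cox5a*, with a fitted difference of 0.26 ± 0.09 (SE), and *Uqcrh*, with 0.19 ± 0.07. For each agent the 1 lower member was the pseudogene *Uqcrh-ps1*, below background on all 4 arrays.

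Complex IV subunits with several isoforms showed the common form above background in each family. *Cox6a1*, the common form of subunit 6a, had 12.41 with both agents, 12.38 with IFNγ, 12.36 with benztropine and 12.43 in control. *Cox6a2*, the form of heart and skeletal muscle, had 6.80, 6.84, 6.82 and 6.84 in the same order. The muscle form was thus just above background on every array, and no array stood apart. *Cox4i2*, the form of lung that responds to oxygen, had 6.78 with both agents, 6.75 with IFNγ, 6.74 with benztropine and 6.91 in control, and *Cox7a1*, of muscle, had 6.84, 6.74, 6.85 and 6.83. Above the 95th percentile of the receptors but below the 99th, these 3 genes were listed on the edge of detection. Of 6 muscle markers 2 were above background on each array.

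*Cox6b2*, known as the testis form of subunit 6b, was the exception among the tissue-limited isoforms. It had 8.84 with both agents, 8.82 with IFNγ, 8.77 with benztropine and 8.57 in control, above the 99th percentile on every array. The control array was the lowest, by 0.25 against IFNγ and by 0.20 against benztropine, while both agents differed from each agent alone by 0.02 and 0.07. The other testis forms were below background. *Cox7b2* lay between 4.49 and 4.78 and *Cox8c* between 5.59 and 5.64. The muscle form *Cox8b* lay between 5.99 and 6.14. *Cox8a*, the common form of subunit 8, at 11.21 with both agents and 11.15 in control, *Cox7a2*, that of 7a, at 8.75 and 8.51, and *Cox7b*, that of 7b, were above background on all arrays. *Cox7a2l*, which helps complexes III and IV associate, had 8.01 with both agents, 8.05 with IFNγ, 7.97 with benztropine and 7.88 in control.

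**Figure D4:**
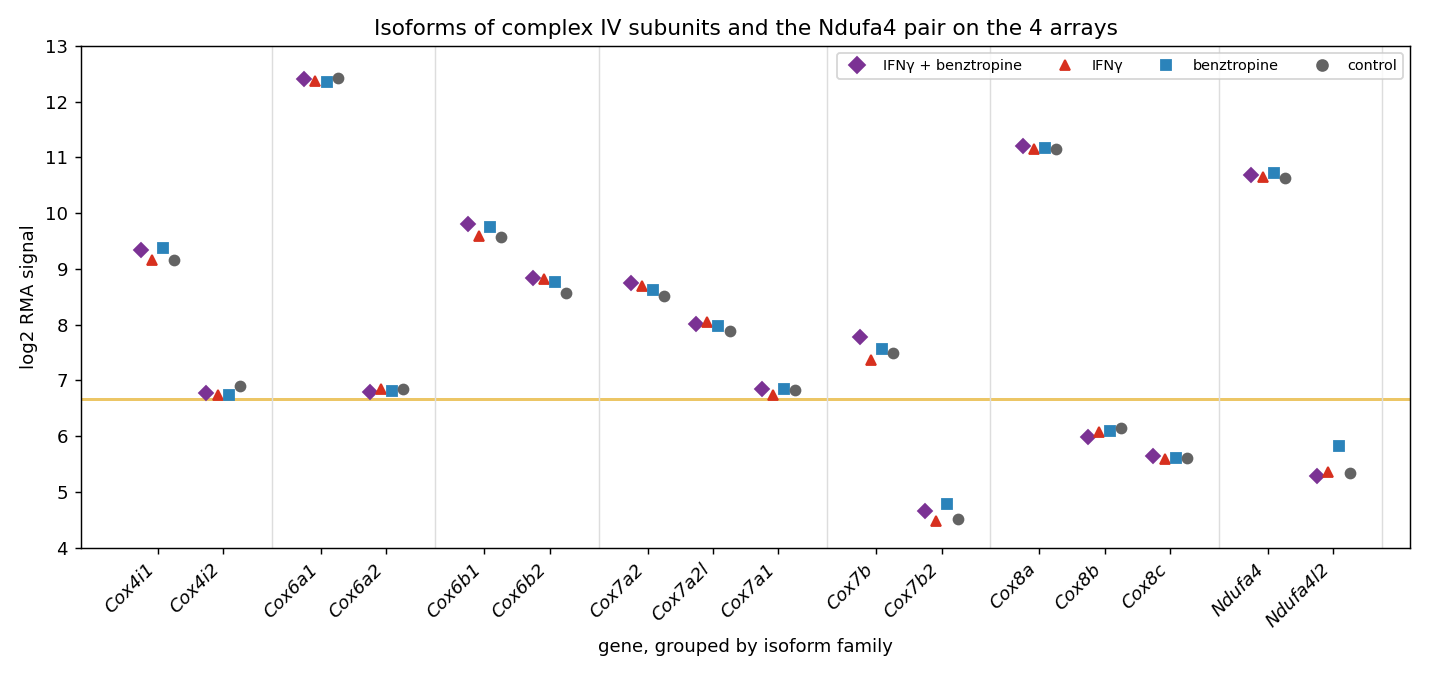
Log2 RMA signal (vertical axis) of complex IV subunits with several isoforms and of the *Ndufa4* pair on the 4 arrays, with the background level of 6.64 to 6.69 as a yellow band. Of the tissue-limited forms *Cox6b2* lies clear of the band, at 8.57 to 8.84, and the others lie near or below it.

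*Ndufa4*, once counted with complex I and now placed at complex IV, had 10.69 with both agents, 10.64 with IFNγ, 10.72 with benztropine and 10.64 in control, a range of 0.08. Its paralog *Ndufa4l2*, which is induced by low oxygen in many cells, had 5.29, 5.36, 5.83 and 5.34 in the same order, all below background, so no fold is given. The benztropine array alone stood above the other 3. Pseudogene *Uqcrh-ps1* had 4.58, 4.78, 4.83 and 5.13, likewise below background.

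Genes of oxidative phosphorylation that the prefixes do not take in were measured as well. Of 19 genes of ATP synthase and its associated proteins 18 were above background on each array. Their median difference was 0.011 with IFNγ against control and 0.013 in the separate pair, and 0.038 with benztropine against control and 0.039 in the presence of IFNγ, with 14 and 15 of 19 higher by any amount for benztropine. The one passage of 1.5-fold was *Atp5g1*, for the c ring of the enzyme, which with both agents fell by 0.60 relative to benztropine. *Atp5g1* had 6.65 with both agents, 7.20 with IFNγ, 7.25 with benztropine and 6.91 in control, so it was higher by 0.30 with IFNγ than in control. The signal with both agents was barely above the background of that array, 6.64. *Cycs*, for cytochrome c, had differences of −0.03 and 0.12 with IFNγ, and *Cyc1*, the cytochrome of complex III that the prefixes do not take in, had −0.03 and −0.14. Of 24 measured assembly factors of complexes III and IV and 7 further ones of complex I, 0 passed 1.5-fold in any comparison. The 24 had medians of −0.012 and 0.014 for IFNγ and of 0.020 and 0.017 for benztropine. The 7 had 0.095 and −0.062 for IFNγ and 0.13 and −0.0035 for benztropine. The members had 0.0049 and 0.047 for IFNγ and 0.036 and 0.046 for benztropine.

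Of 4 listed genes whose products act on the chain in inflammation 2 were measured, and *Acod1* passed 1.5-fold. It encodes the enzyme that makes itaconate, an inhibitor of complex II in activated macrophages. *Acod1* had 8.62 with both agents, 8.37 with IFNγ, 6.45 with benztropine and 6.0006 in control, so both arrays with IFNγ stood far above both without it. The last 2 were below background, and the rise was at least 3.21-fold with IFNγ against control and at least 3.91-fold with both agents against benztropine. *Nos2*, whose product nitric oxide competes with oxygen at complex IV, had 6.64, 6.42, 6.43 and 6.65 in the same order, above background only with both agents.

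The promoters of the members were described because the family is a known target of NRF1 and ETS factors. RefSeq (GRCm38.p6) gave 63 windows of 250 bases upstream of a start for 61 of the 75 members. The letters GCGCA and GCGC separated by any 1 base, an NRF1-type site, were searched on both strands and occurred in 9 windows (14.3%, 8 genes), beside 3.74% of all 32851 windows and 5.18% of 21262 windows of protein-coding genes. The 2 windows of *Ndufa5* overlap and share their site. CCGGAAG, an ETS-type site, occurred in 12 windows (19%), beside 6.91% of all windows and 8.98% of coding ones. AAGATGGCG, a YY1-type site, occurred in 0 windows, beside 0.606% of all. No NRF1-type and ETS-type matches overlapped. A match of letters is not a bound site. The windows shown are examples, and a link between letters and differences was not tested. Shown are *Sdha*, with NRF1-type letters, and *Cox6a1*, with both NRF1-type and ETS-type letters, whose signals had ranges of 0.03 and 0.07. *Sdhd* has both kinds and benztropine differences of 0.22 against control and 0.12 in the presence of IFNγ. *Cox7b* has none and a difference of 0.41 with both agents against IFNγ, the mean of 2 probe sets that disagreed. *Cox8a* and *Ndufaf3*, not shown, also have none, with ranges of 0.06 and 0.03. Capitals mark NRF1-type letters of 10 bases and ETS-type letters of 7 bases (CTTCCGG on this strand), and each window is written in the direction of the gene.
Cox6a1, chr5:115348959-115349208, minus strand: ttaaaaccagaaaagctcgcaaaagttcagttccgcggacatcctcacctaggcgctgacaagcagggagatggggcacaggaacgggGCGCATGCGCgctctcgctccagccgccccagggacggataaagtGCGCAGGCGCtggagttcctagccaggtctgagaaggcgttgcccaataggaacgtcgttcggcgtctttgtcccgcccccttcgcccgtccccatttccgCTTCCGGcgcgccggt
Sdha, chr13:74350241-74350490, minus strand: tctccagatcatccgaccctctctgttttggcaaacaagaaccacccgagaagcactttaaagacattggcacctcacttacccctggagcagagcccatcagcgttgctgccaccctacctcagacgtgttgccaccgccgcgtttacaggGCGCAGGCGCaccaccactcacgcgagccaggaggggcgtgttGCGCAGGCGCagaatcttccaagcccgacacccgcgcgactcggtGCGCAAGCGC
Sdhd, chr9:50603850-50604099, minus strand: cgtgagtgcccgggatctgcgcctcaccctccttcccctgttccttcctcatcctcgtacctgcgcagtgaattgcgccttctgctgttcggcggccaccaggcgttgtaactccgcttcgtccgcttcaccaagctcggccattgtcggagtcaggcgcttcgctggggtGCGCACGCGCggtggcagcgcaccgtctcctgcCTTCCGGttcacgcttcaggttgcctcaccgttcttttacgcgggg
Cox7b, chrX:106015450-106015699, plus strand: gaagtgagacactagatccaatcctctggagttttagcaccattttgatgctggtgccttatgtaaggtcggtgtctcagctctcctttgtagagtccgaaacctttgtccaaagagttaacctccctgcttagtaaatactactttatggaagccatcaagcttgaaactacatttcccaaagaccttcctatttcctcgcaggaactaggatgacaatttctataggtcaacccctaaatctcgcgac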

How the data were processed

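RNA pools of 4 conditions were labelled and hybridized to Mouse Gene 2.0 ST arrays by the authors, who deposited log2 signals made with RMA in Affymetrix Expression Console, which corrects background, normalizes quantiles and summarizes probe sets. The values were used as deposited. For the probe sets no genome build is given in the sources used here. Of 41345 probe sets, 23521 had 1 gene symbol, 1820 several and 16004 none. Only those with 1 symbol entered the comparisons. Probe sets of a gene were averaged.

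Differences between arrays were compared with the study's threshold of 1.5-fold, without a test. limma 3.58.1 in R 4.3.3 was fitted with additive terms on all 22180 genes. Python 3.11.15, numpy 2.4.6, pandas 2.3.3 and statsmodels 0.14.6 were used. With 1 array per condition, the number of arrays limits the precision. The steps were tested on simulated data. Named are members past 1.5-fold, the highest and lowest of each group for each agent over both pairs (complex II subunits and assembly factors apart), isoform families, members below background and other list genes past 1.5-fold. Members named beyond this rule (such as *Ndufs4*) were chosen after their values were seen. Members and lists were chosen with earlier results of these data known.

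Alternatives were thresholds of 0.32 on the log2 scale and of 2-fold, genes above background only, quantile normalization again, a loess trend removed (span 0.3), median centering, the highest probe set, assembly factors left out, the 99th percentile as background, and, in limma, robust variances, a trend of the variance, or only genes above background. The result of 1 motif search is not reported here.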

Additional observations from a re-analysis of the deposited data

Results flagged for a closer look

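Of the members, *Ndufa4l2* differed in direction between the pairs of arrays for each agent, with a difference past 0.32 on the log2 scale in one of them. With IFNγ it was 0.0202 against control and −0.54 in the presence of benztropine, and with benztropine 0.49 against control and −0.07 in the presence of IFNγ. All 4 signals were below background, both patterns rest on the benztropine array, and the differences between the pairs were not tested.

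Shared probe sets that the comparisons left out also gave differences past 0.32. The probe set of *Uqcr10*, a small subunit of complex III, and *Gm6293* had 7.13 with both agents, 6.83 with IFNγ, 6.57 with benztropine and 6.89 in control. It differed by 0.56 with both agents against benztropine and by −0.32 with benztropine against control, and both differences rest on the benztropine signal, which was below background. The probe set of *Uqcrb* and *Gm10767* differed by 0.39 with both agents against benztropine and by 0.41 against IFNγ, and was above background only with both agents, whereas the one of *Uqcrb* alone differed by 0.05 in each.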

How the results depend on the processing

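With 1 array per condition the number of arrays is the limit, and signals near background have little meaning. The count of 0 members past 1.5-fold, the same in each direction and comparison, held above background only, under quantile normalization again and after loess. Past 0.32 on the log2 scale it was 1 lower for IFNγ against control, 2 higher and 1 lower for both agents against benztropine, 1 higher for benztropine against control, 3 higher for both agents against IFNγ, and 4 higher and 1 lower for both agents against control. By the highest probe set 1 member, *Cox7b*, was higher past 1.5-fold for both agents against IFNγ. limma called 0 members under each of its alternatives. For IFNγ it called 161 genes higher and 6 lower, 380 and 124 with only genes above background, and 419 and 133 with a variance trend. Members higher at an unadjusted p under 0.05 were 2, then 6 of 66 and 4 for IFNγ, and 8, then 12 and 11 for benztropine. As shares these were 2.67%, 9.09% and 5.33% for IFNγ, beside 5.87%, 8.36% and 6.47% of all genes fitted. For benztropine they were 10.7%, 18.2% and 14.7%, beside 3.53%, 4.85% and 4.05%. Members above background in control were 64, and 53 with the 99th percentile.

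Medians of the members moved by less than 0.05. For IFNγ against control the range was −0.017 to 0.010, so its direction was not settled. It was 0.045 to 0.089 for both agents against benztropine, 0.011 to 0.045 for benztropine against control, 0.046 to 0.075 for both agents against IFNγ and 0.089 to 0.12 for both agents against control. Medians of all genes moved too. For IFNγ against control they were −0.022 after quantile normalization, −0.011 after centering and −0.0012 by the highest probe set. The members had −0.017, −0.0051 and −0.0031 there. For both agents against benztropine the 0.089, after loess, stood beside 0.0012 for all genes. The share of members higher with both agents was 68% against benztropine and 74.7% against IFNγ, and after centering on the median of all genes 81.3% and 84%, where 51.3% and 51.2% of all genes were higher. The median departure from adding was 0.018, and 0.044 after quantile normalization, an alternative added after seeing the data. Members higher in both benztropine pairs numbered 39 to 42 under quantile normalization, centering and the highest probe set. No paired analysis was possible because each condition has 1 array and the labels give no replicate number to use as a block.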

Other observations

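Of 13 measured genes of the tricarboxylic acid cycle 0 passed 1.5-fold in any comparison, and their median differences were −0.022 with IFNγ against control and −0.041 in the separate pair, and 0.035 with benztropine against control and 0.017 in the presence of IFNγ. Of 14 measured glycolytic genes 0 passed either, with medians of 0.015 and −0.0037 for IFNγ and 0.039 and −0.011 for benztropine. Of 13 regulators of mitochondrial biogenesis 12 were above background on each array and 0 passed 1.5-fold. Their medians were −0.014 and −0.018 for IFNγ, with 6 of 13 higher in each pair. For benztropine they were 0.045 and 0.0032, with 9 and 8 of 13 higher. With IFNγ *Nrf1* had −0.15 and −0.11, and *Gabpa* had −0.13 and −0.02. *Ppargc1a*, which encodes the coactivator PGC-1α and was singled out after its value was seen, had 9.77 with both agents, 9.78 with IFNγ, 9.63 with benztropine and 9.47 in control, so control was the lowest of the 4 arrays.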
